A study of Mus musculus with 8 samples.

Results

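The genes described here are the subunits of the vacuolar proton pump (V-ATPase) and the transporters, carbonic anhydrases and regulators that handle acid and base in the kidney. They are 36 genes chosen by name, of which 35 were among the 37583 genes counted in each library; Rhbg was not analysed here. They comprise 23 pump genes, 3 bicarbonate exchangers, 2 ammonia transporters, 5 carbonic anhydrases and 3 regulators. Within the pump, 5 isoforms are known from intercalated cells (Atp6v1b1, Atp6v1c2, Atp6v1g3, Atp6v0a4 and Atp6v0d2, called specialised here), and 18 are used more widely.

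The series holds RNA-seq of whole mouse kidneys. There were 4 libraries labelled knockout, from Six2Cre+TFAP2Afl/flTFAP2Bfl/WT mice, which carry a Cre recombinase under the control of Six2, 2 floxed alleles of Tfap2a, and 1 floxed and 1 wildtype allele of Tfap2b. There were 4 libraries labelled wildtype, from littermates whose genotype is given as WT; whether these animals carry Cre or floxed alleles is not given in the sources used here, and neither are age, sex, litter or strain. Six2 is active in nephron progenitors, which give rise to the nephron as far as the connecting tubule, whereas most of the collecting duct, where many intercalated cells lie, comes from the ureteric bud. Tfap2a and Tfap2b encode AP-2 transcription factors.

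Intercalated cells set the acid content of urine. The type A cell pumps protons into urine with a V-ATPase and returns bicarbonate to blood through the exchanger AE1, while the type B cell secretes bicarbonate through pendrin. The pump has a cytosolic V1 sector, which hydrolyses ATP, and a membrane V0 sector, which carries protons. Carbonic anhydrases supply protons to the pump and bicarbonate to the exchangers, and Rh glycoproteins pass ammonia. The transcription factor Foxi1 is required for intercalated cells to form in the mouse.

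Gene counts totalled 13871861 to 16629301 per library, and values are given as CPM, counts scaled to a common library size by the TMM method, with the mean ± SD over 4 libraries. The libraries are not stated to come from separate animals, so p-values measure the spread between libraries only. Tfap2a was at 3.63 to 5.81 CPM in the libraries labelled knockout and 2.77 to 5.30 CPM in those labelled wildtype, and Tfap2b at 57.9 to 103 CPM in the libraries labelled knockout and 51.8 to 100.2 CPM in those labelled wildtype. Neither targeted gene was thus lower by label, although gene-level counts include exons that a deletion may leave, and the directions below rest on the labels alone. Adrenal transcripts marked the libraries labelled knockout 2 and wildtype 1 (summed level of 6 genes, 940.1 and 907 CPM, against 5.61 to 12.9 CPM elsewhere). Heat-shock transcripts marked those labelled knockout 2 and 4 (5 genes, 759 and 1219 CPM, against 255 to 346.5 CPM), and red cell transcripts marked knockout 1 (9 genes, 7726 CPM, against 118.5 to 1309 CPM). The clock genes Arntl and Npas2 were highest in knockout 4 and wildtype 4, the clock-shifted libraries. As markers of intercalated cells that are not among the 36 genes, Aqp6, Dmrt2, Hepacam2, Slc26a7, Oxgr1, P2ry14, Kit and Jag1 had counts in every library, with a summed level of 171 to 214.5 CPM in the libraries labelled knockout and 146 to 214 CPM in those labelled wildtype.

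No acid-base gene passed the test as higher or lower in the libraries labelled knockout. Of the 36 genes, 34 had enough counts to test, and 0 reached an adjusted p of 0.05 by edgeR's quasi-likelihood test over 14433 genes (smallest adjusted p = 0.957), where 0.00% of all genes did. At an unadjusted p under 0.05 there were 2 of 34 genes, or 5.88%, beside 4.00% of all tested genes. These were Car2, higher (beside 2.17% of all genes), and Atp6v1a, lower (beside 1.84%). No gene had groups that did not overlap, beside 1.97% of all tested genes. Log2 differences, libraries labelled knockout minus those labelled wildtype, were positive for 25, or 73.5%, beside 51.3% of all tested genes, and negative for 9. Their median was 0.11, beside 0.01 over all tested genes. The 95% interval lay within a factor of 2 in either direction for 32 of the 34 genes, or 94.1%, beside 86.5% of all tested genes. It lay within a factor of 1.5 for 26, or 76.5%, beside 61.6% of all tested genes. The exceptions to the wider bound were Car14 and Hmx2.

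The count of 2 changed when single libraries were left out, as did the share of all genes at this p. It was 0 without any 1 of the libraries labelled knockout 1, 2 or 4 or wildtype 2, 3 or 4, beside 2.35% to 3.66% of all genes. Without knockout 3 it was 3, or 8.82%, beside 8.53% of all genes. Without wildtype 1 it was 8 (6 higher, 2 lower), or 23.5%, beside 8.53% of all genes. In whole kidney, fewer cells of a type and less RNA per cell cannot be told apart.

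**Figure D1:**
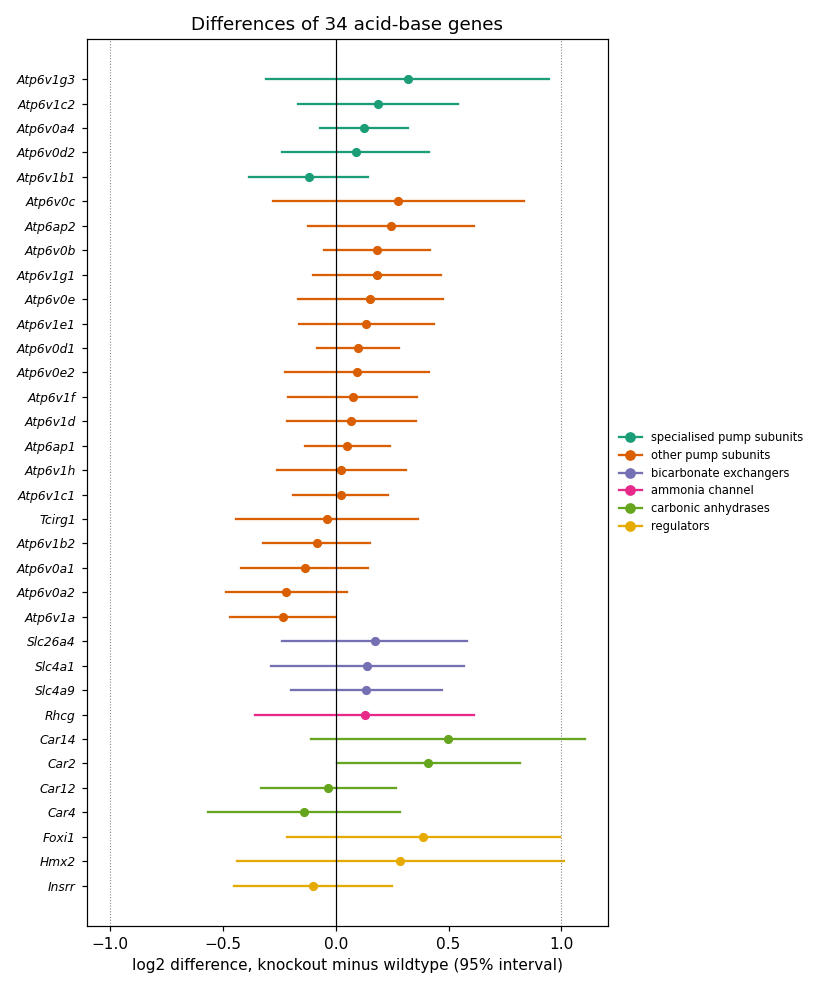
Log2 difference of each tested acid-base gene (x axis, libraries labelled knockout minus those labelled wildtype), with points for the edgeR estimate and lines for the 95% interval, coloured by subgroup; dotted lines mark a factor of 2. Of the 34 intervals, 32 lie between the dotted lines, and only those of Car2 and Atp6v1a leave out 0.

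Among the regulators, Foxi1 varied widely between libraries of the same label. Foxi1 (ENSMUSG00000047861, chromosome 11, 34204338 to 34208089, minus strand, GRCm38), the forkhead factor of intercalated cells, was at 31.6, 64.2, 38.5 and 53.0 CPM in knockout-labelled libraries 1 to 4, against 50.4, 22.9, 39.3 and 30.5 CPM in wildtype-labelled libraries 1 to 4. Its lowest and highest values differed by 2.80 times, and the groups overlapped broadly. The means were 46.8 ± 14.6 and 35.8 ± 11.8 CPM (log2 difference 0.39, SE 0.27, 95% interval -0.22 to 0.99; edgeR adjusted p = 0.957). Without both heat-shock libraries the log2 difference was -0.03. Hmx2, a homeobox factor, was at 6.91, 13.4, 5.41 and 10.3 CPM in knockout-labelled libraries 1 to 4, against 10.9, 7.56, 4.23 and 7.03 CPM in wildtype-labelled libraries 1 to 4. Like Foxi1, it was highest in the library labelled knockout 2, and its groups overlapped. Its log2 difference was 0.29 (SE 0.33, 95% interval -0.44 to 1.01), and -0.27 without both heat-shock libraries. Insrr, a receptor kinase that senses alkaline pH, was at 33.5, 55.4, 39.6 and 44.8 CPM in knockout-labelled libraries 1 to 4, against 56.3, 41.0, 44.2 and 44.6 CPM in wildtype-labelled libraries 1 to 4. The 2 libraries with adrenal transcripts had its highest levels, and the log2 difference was -0.10 (SE 0.16).

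The promoters of acid-base genes are shown because the targeted genes encode AP-2 factors, and because Foxi1 is a forkhead factor. RefSeq promoter windows on GRCm38.p6, 250 bases before the gene's start and 50 from it on, were matched by symbol for 25 of the 36 genes. Searched on both strands, the AP-2 motif GCCNNNGGC, which reads the same on both, was in 4 of the 25 windows (Foxi1, Rhcg, Atp6v0b and Car4), beside 16.5% of 27025 windows of the same length. The forkhead motif TGTTTAC, or its reverse complement, was in 1 of the 25 (Atp6v1b1), beside 3.55% of all windows. The windows of 4 genes of intercalated cells follow, 5′ to 3′ on the gene's strand, with motif matches in capitals; in Foxi1 the AP-2 matches begin 127 bases before and 37 bases after the start, in Rhcg 4 bases after it, and in Atp6v1b1 the forkhead match begins 98 bases before it, while Slc26a4 holds neither motif. They lie at chr11:34208040-34208339 (Foxi1, minus strand), chr7:79617608-79617907 (Rhcg, minus), chr6:83742767-83743066 (Atp6v1b1, plus) and chr12:31559935-31560234 (Slc26a4, minus).
Foxi1: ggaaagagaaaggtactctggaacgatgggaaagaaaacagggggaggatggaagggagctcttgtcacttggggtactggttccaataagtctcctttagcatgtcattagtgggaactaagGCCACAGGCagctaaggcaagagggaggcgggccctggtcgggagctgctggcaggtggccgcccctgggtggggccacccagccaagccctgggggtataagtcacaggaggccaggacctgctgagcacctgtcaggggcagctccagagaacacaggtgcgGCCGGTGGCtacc
Rhcg: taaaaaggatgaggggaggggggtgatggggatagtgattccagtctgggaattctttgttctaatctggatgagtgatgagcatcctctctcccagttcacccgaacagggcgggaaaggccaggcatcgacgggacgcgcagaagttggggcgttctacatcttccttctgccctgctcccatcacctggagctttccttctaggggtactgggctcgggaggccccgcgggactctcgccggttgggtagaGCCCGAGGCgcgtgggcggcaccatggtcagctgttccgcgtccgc
Atp6v1b1: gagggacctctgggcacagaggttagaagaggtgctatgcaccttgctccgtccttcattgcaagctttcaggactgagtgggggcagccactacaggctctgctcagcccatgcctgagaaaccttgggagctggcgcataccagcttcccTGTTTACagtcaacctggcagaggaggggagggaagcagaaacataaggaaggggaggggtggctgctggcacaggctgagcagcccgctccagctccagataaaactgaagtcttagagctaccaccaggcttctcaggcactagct
Slc26a4: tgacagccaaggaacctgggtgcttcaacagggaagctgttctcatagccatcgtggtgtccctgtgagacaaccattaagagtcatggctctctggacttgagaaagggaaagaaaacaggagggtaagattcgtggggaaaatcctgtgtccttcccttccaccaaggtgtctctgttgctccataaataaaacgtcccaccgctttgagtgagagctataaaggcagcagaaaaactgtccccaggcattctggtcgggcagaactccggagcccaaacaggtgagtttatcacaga
A match is a description of letters, not a bound site.

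The specialised pump isoforms each overlapped in level between the labels. Their summed level was 581, 571, 493 and 517 CPM in knockout-labelled libraries 1 to 4, against 566.5, 475, 479 and 475.5 CPM in wildtype-labelled libraries 1 to 4. Of the 5, 4 log2 differences were positive, or 80.0%, beside 51.3% of all tested genes, and 1 was negative (median 0.13). Of these 5, 0 passed the test, with 0 at an unadjusted p under 0.05. Atp6v0a4 (ENSMUSG00000038600, chromosome 6, 38048483 to 38124586, minus strand), the membrane-bound a4 subunit whose human counterpart is mutated in distal renal tubular acidosis, was the most abundant of them and the steadiest. It was at 301, 306, 289 and 312 CPM in knockout-labelled libraries 1 to 4, against 287, 290.2, 258 and 271 CPM in wildtype-labelled libraries 1 to 4. Only the library labelled knockout 3 reached below the highest wildtype value. The means were 302 ± 9.49 and 277 ± 14.8 CPM (log2 difference 0.13, SE 0.09, 95% interval -0.07 to 0.32; edgeR adjusted p = 0.957).

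Atp6v1b1 (ENSMUSG00000006269, chromosome 6, 83742990 to 83758855, plus strand), the B1 subunit that binds ATP in the V1 sector, was the single specialised isoform with a negative difference. It was at 85.7, 85.4, 68.2 and 62.3 CPM in knockout-labelled libraries 1 to 4, against 88.5, 78.2, 83.3 and 77.7 CPM in wildtype-labelled libraries 1 to 4. The libraries labelled knockout 3 and 4 lay below all others and knockout 1 and 2 among the highest (log2 difference -0.12, SE 0.12, 95% interval -0.38 to 0.14). Atp6v1g3, the G3 subunit of the peripheral stalk, was at 108, 75.6, 57.1 and 56.0 CPM in knockout-labelled libraries 1 to 4, against 92.7, 43.2, 52.9 and 49.2 CPM in wildtype-labelled libraries 1 to 4. The libraries labelled knockout 1 and wildtype 1 stood highest in their groups, and those groups overlapped (log2 difference 0.32, SE 0.28, 95% interval -0.31 to 0.95). Atp6v1c2, the C2 subunit that links V1 to V0, was at 45.8, 50.3, 42.1 and 37.5 CPM in knockout-labelled libraries 1 to 4, against 49.5, 29.1, 41.1 and 34.8 CPM in wildtype-labelled libraries 1 to 4. Its lowest value was in the library labelled wildtype 2 (log2 difference 0.19, SE 0.16). Atp6v0d2, the d2 subunit of V0, was at 40.7, 53.6, 35.9 and 49.2 CPM in knockout-labelled libraries 1 to 4, against 48.6, 34.2, 43.5 and 42.6 CPM in wildtype-labelled libraries 1 to 4. Both groups spanned nearly the same range (log2 difference 0.09, SE 0.15).

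**Figure D2:**
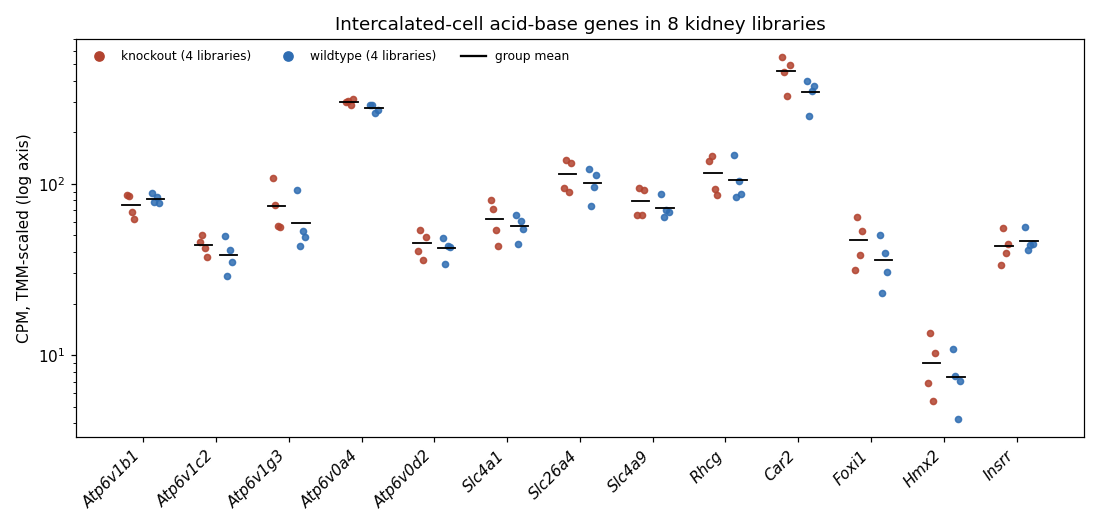
CPM on a log axis of 13 acid-base genes of intercalated cells, with points for the 4 libraries labelled knockout (left of each pair) and the 4 labelled wildtype, and bars for group means. The groups overlap for every gene shown, with Atp6v0a4 the tightest (258 to 312 CPM) and Hmx2 the widest (4.23 to 13.4 CPM).

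The more widely used pump genes had a summed level of 3832, 3349, 3667 and 3263 CPM in knockout-labelled libraries 1 to 4, against 3590, 3491, 3667 and 3470 CPM in wildtype-labelled libraries 1 to 4. Of the 18, 13 log2 differences were positive, or 72.2%, beside 51.3% of all tested genes, and 5 were negative (median 0.07). Of these 18, 0 passed the test, and 1 was at an unadjusted p under 0.05. That gene was Atp6v1a (ENSMUSG00000052459, chromosome 16, 44085402 to 44139705, minus strand), the catalytic A subunit that splits ATP. It was at 736, 675, 823 and 674 CPM in knockout-labelled libraries 1 to 4, against 786, 892, 867 and 874 CPM in wildtype-labelled libraries 1 to 4. Of the libraries labelled knockout, 3 lay below every library labelled wildtype, and knockout 3 lay above wildtype 1. The means were 727 ± 70.1 and 855 ± 46.9 CPM (log2 difference -0.23, SE 0.11; edgeR adjusted p = 0.957). The proximal tubule markers, 9 genes, summed to 51600, 47000, 65490 and 38920 CPM in knockout-labelled libraries 1 to 4, against 62060, 56640, 56940 and 51250 CPM in wildtype-labelled libraries 1 to 4. Most of each sum was Kap, at 41310, 36460, 51700 and 26050 CPM, against 51760, 42920, 44080 and 37350 CPM. Slc5a2, Slc5a12 and Aqp1 had higher means under the knockout label, and the other markers lower ones. The part of these markers in the Atp6v1a result was not tested.

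Its partner in the ATP-binding ring, Atp6v1b2, was at 469 ± 49.5 and 497 ± 25.9 CPM under the knockout and wildtype labels (log2 difference -0.09, SE 0.11). The a subunits Atp6v0a1 and Atp6v0a2 of intracellular membranes also had negative differences, at -0.14 (SE 0.13) and -0.22 (SE 0.12). Of the widely used genes, the largest positive differences were those of Atp6v0c, which forms the proton-carrying ring, at 0.28 (SE 0.25, but -0.28 without the heat-shock and -0.0009 without the clock-shifted libraries), Atp6ap2, the accessory subunit also known as the prorenin receptor, at 0.25 (SE 0.17), and Atp6v0b of the same ring and Atp6v1g1 of the stalk, each at 0.18 (SE 0.11 and 0.13). The stalk and rotor genes Atp6v1e1, Atp6v1d and Atp6v1f differed by 0.14, 0.07 and 0.07 (SE 0.13 each), and the regulatory subunits Atp6v1c1 and Atp6v1h by 0.02 (SE 0.09) and 0.025 (SE 0.13). In V0, Atp6v0d1 differed by 0.10 (SE 0.08), and the small subunits Atp6v0e and Atp6v0e2 by 0.15 (SE 0.15) and 0.09 (SE 0.14). Atp6ap1, an assembly factor, was the steadiest of all 34 genes, at 272 ± 9.20 and 263 ± 9.05 CPM under the knockout and wildtype labels, with 1.10 times between its lowest and highest library. Tcirg1, the a3 subunit of osteoclast and lysosomal pumps, was at 24.1 ± 3.46 and 24.7 ± 6.68 CPM. Its highest level, 34.2 CPM, was in the library labelled wildtype 3, whose 7 macrophage markers summed to 470.5 CPM within an overall range of 237 to 614.5 CPM; their part in it was not tested.

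Some pump genes share sequence with other genes. Of the distinct 50-base words in the longest transcript, 12.2% in Atp6v0c occur in its pseudogenes Atp6v0c-ps1 and Atp6v0c-ps2, 19.2% in Atp6v1g1 and 12.5% in Atp6v1f occur in transcripts of other genes, and 0% in Atp6v1b1 do. In Atp6v0a2, 9.86% of exon bases lie in the overlapping gene 4930404A12Rik. Reads without a unique place and reads shared by overlapping genes were left out of the counts, so the levels of these genes, Atp6v0c at 8.30 to 17.02 CPM above all, are uncertain.

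Within a subunit family, isoforms were set against each other by their level per length, in CPM per kb of exon. The specialised a4 isoform made up most of the a family, with a share of 64.2 ± 3.01% in the libraries labelled knockout and 59.4 ± 3.47% in those labelled wildtype. Its shares were 68.6, 63.3, 61.9 and 62.9% in the libraries labelled knockout 1 to 4, against 64.4, 58.9, 56.5 and 57.8% in those labelled wildtype 1 to 4. Only the library labelled wildtype 1 lay within the range of those labelled knockout. Atp6v0a2 had 17.3 ± 1.28 and 20.3 ± 1.89%, Atp6v0a1 13.1 ± 1.45 and 14.6 ± 1.16%, and Tcirg1 5.51 ± 0.63 and 5.74 ± 1.59%. By contrast the B1 isoform was a minority, with 16.4 ± 2.85% of the B family in the libraries labelled knockout and 16.7 ± 1.42% in those labelled wildtype, the rest being Atp6v1b2. Atp6v0d2 had 16.9 ± 2.94 and 17.02 ± 2.27% of the d family, Atp6v1g3 30.0 ± 3.63 and 27.9 ± 5.38% of the G family, and Atp6v1c2 44.8 ± 4.77 and 41.7 ± 6.36% of the C family. Atp6v0e2 had 45.9 ± 4.20 and 46.2 ± 4.13% of the e family. Group means differed by less than 1 SD of either group in the B, C, G, d and e families. These shares are descriptions and were not tested. Per length, a4 also lay above every other specialised isoform under both labels. Which cells of the whole kidney its level came from was not tested.

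**Figure D3:**
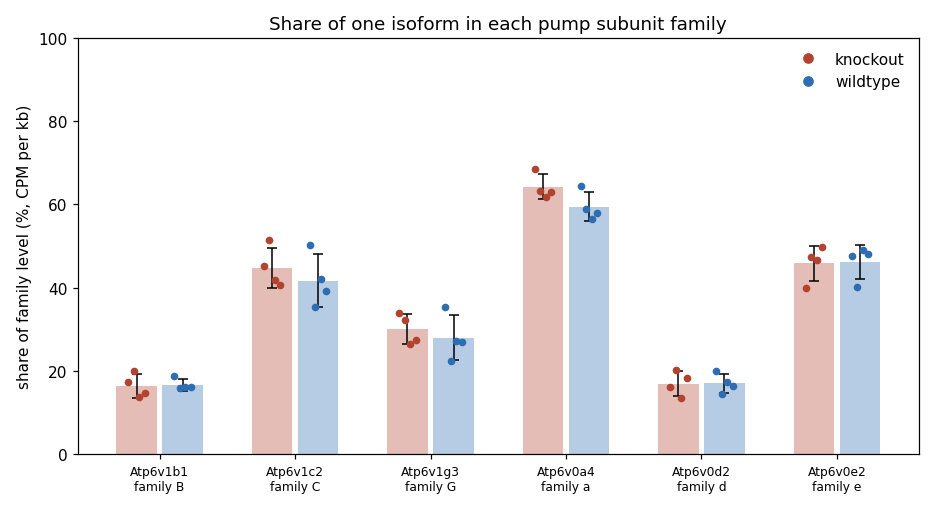
Share of 1 isoform within each pump subunit family, as a percentage of the family's summed CPM per kb, with bars for group means, whiskers for SD over 4 libraries and points for libraries; knockout is left of wildtype. The a4 isoform lies between 56.5 and 68.6% of its family in every library, and the B1 and d2 isoforms between 13.4 and 20.2%.

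The bicarbonate exchangers had log2 differences of 0.14 to 0.17, and 0 of 3 passed the test or an unadjusted p of 0.05. Slc26a4 (ENSMUSG00000020651, chromosome 12, 31519827 to 31559969, minus strand), which encodes pendrin, the apical exchanger of type B cells, was at 94.0, 138, 90.0 and 133 CPM in knockout-labelled libraries 1 to 4, against 122, 74.6, 95.4 and 113 CPM in wildtype-labelled libraries 1 to 4. The libraries labelled knockout 2 and 4 were the highest and the others mixed (log2 difference 0.17, SE 0.18, 95% interval -0.24 to 0.58; edgeR adjusted p = 0.957). Slc4a9, the AE4 transporter of type B cells, was at 65.9, 94.0, 65.6 and 91.9 CPM in knockout-labelled libraries 1 to 4, against 87.0, 63.7, 70.0 and 68.2 CPM in wildtype-labelled libraries 1 to 4. Its values fell into 3 high libraries (knockout 2 and 4, wildtype 1) and 5 low ones, across the labels (log2 difference 0.14, SE 0.15). For both exchangers the log2 difference was -0.14 without both heat-shock libraries.

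Slc4a1 (ENSMUSG00000006574, chromosome 11, 102348824 to 102366203, minus strand) encodes AE1, the basolateral exchanger of type A cells and of red cells. It was at 80.9, 70.9, 53.5 and 43.2 CPM in knockout-labelled libraries 1 to 4, against 66.2, 44.8, 60.3 and 54.4 CPM in wildtype-labelled libraries 1 to 4. The groups overlapped broadly (log2 difference 0.14, SE 0.19, 95% interval -0.29 to 0.57). The summed red cell markers were 7726, 1166, 193 and 633.5 CPM in knockout-labelled libraries 1 to 4, against 1309, 201, 118.5 and 237 CPM in wildtype-labelled libraries 1 to 4. The 3 libraries highest in these markers were also the 3 highest in Slc4a1, and among the other 5 the orders differed; red cells' part in the Slc4a1 level was not tested.

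Rhcg (ENSMUSG00000030549, chromosome 7, 79593363 to 79617657, minus strand), the ammonia channel of the collecting duct, was at 136, 146, 93.3 and 86.2 CPM in knockout-labelled libraries 1 to 4, against 147, 84.3, 103 and 87.7 CPM in wildtype-labelled libraries 1 to 4. The libraries labelled knockout 1 and 2 and wildtype 1 were high and the other 5 low, across the labels. The means were 115 ± 30.0 and 106 ± 28.9 CPM (log2 difference 0.13, SE 0.22; edgeR adjusted p = 0.964).

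Of the carbonic anhydrases, 4 were tested, with 2 positive and 2 negative differences, and 0 passed the test. Car2 (ENSMUSG00000027562, chromosome 3, 14886273 to 14900770, plus strand), the cytosolic enzyme of intercalated and other tubule cells, was at 551, 448, 326 and 495 CPM in knockout-labelled libraries 1 to 4, against 399, 251, 348 and 371 CPM in wildtype-labelled libraries 1 to 4. Of the libraries labelled knockout, 3 lay above every library labelled wildtype, and knockout 3 lay below 3 of them. The means were 455 ± 95.7 and 342 ± 64.6 CPM (log2 difference 0.41, SE 0.18, 95% interval 0.01 to 0.82; edgeR adjusted p = 0.957). The sum of the principal cell markers, 10 genes of which Aqp2 was the most abundant, gave nearly the same order of libraries as Car2. It was 1533, 1344, 903 and 1417 CPM in knockout-labelled libraries 1 to 4, against 1103, 819, 982 and 946 CPM in wildtype-labelled libraries 1 to 4. The markers did not all share this order. In the library labelled knockout 4, Aqp2 and Aqp3 were at their highest, at 762 and 195 CPM. Scnn1b, Scnn1g, Fxyd4 and Hsd11b2 were at their lowest there, and the others lay between. The part of these markers in the Car2 difference was not tested.

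Car14, a membrane-bound enzyme, had the largest difference of all 34 genes, 0.50 (SE 0.27, 95% interval -0.11 to 1.10; edgeR adjusted p = 0.957). It was at 72.9 to 161 CPM in the libraries labelled knockout and 59.1 to 121 CPM in those labelled wildtype. In the annotation 17.5% of its exon bases lie in Aph1a, and without regard to strand such reads cannot be told apart. The membrane-bound enzymes Car4 and Car12 had negative differences, at 220.1 ± 42.7 and 243 ± 56.4 CPM (log2 difference -0.14, SE 0.19) and at 322 ± 43.7 and 329.5 ± 45.6 CPM (log2 difference -0.03, SE 0.13) under the knockout and wildtype labels. Car15, a lipid-anchored enzyme in the mouse, had 0 to 8 counts per library and was not tested. Its 0 counts in the library labelled knockout 1 set a limit of 0.19 CPM, the level of 3 counts, which covers counting error only, and 65.7% of its exon bases lie in the overlapping gene Gm20518.

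Other acid-base genes, a list of 50 that covers further exchangers, chloride channels, pump assembly factors and carbonic anhydrases, showed the same lack of called genes. Of the 42 tested, 21 differences were positive and 21 negative, 0 passed the test, and 2 (4.76%) were at an unadjusted p under 0.05, both lower, beside 4.00% of all tested genes in either direction and 1.84% lower. Slc9a8, a sodium-proton exchanger, was at 291 ± 50.6 and 396 ± 68.1 CPM under the knockout and wildtype labels (log2 difference -0.45, SE 0.16; edgeR adjusted p = 0.957). Clcn3, a chloride-proton exchanger of endosomes, was at 209.8 ± 24.6 and 251 ± 17.6 CPM (log2 difference -0.26, SE 0.11; edgeR adjusted p = 0.957). Atp4a, the catalytic subunit of the gastric proton pump, was the only 1 of the 42 tested genes whose groups did not overlap, beside 1.97% of all tested genes. Atp4a is named after its values were seen. It was at 49.5, 45.8, 28.3 and 32.3 CPM in knockout-labelled libraries 1 to 4, against 23.0, 5.50, 27.01 and 26.8 CPM in wildtype-labelled libraries 1 to 4 (log2 difference 0.92, SE 0.43, 95% interval -0.05 to 1.90; edgeR adjusted p = 0.957). Besides Slc9a8, the most abundant were Slc4a4, the sodium-bicarbonate cotransporter of the proximal tubule, at 943 ± 161 and 961 ± 146 CPM, and Kcnj16, a potassium channel subunit, at 727 ± 99.3 and 789.6 ± 109 CPM.

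Levels per length ordered the genes as follows, in CPM per kb under the knockout and wildtype labels. Car2 (188 ± 39.5 and 141 ± 26.7), Atp6v1a (120.3 ± 11.6 and 141.5 ± 7.77) and Car4 (112 ± 21.7 and 124 ± 28.7) were the highest, and under the wildtype label these 3 did not differ beyond their spread. Next came 6 pump genes whose order differed between the labels: Atp6v1e1 (103 ± 16.9 and 94.1 ± 10.6), Atp6ap1 (90.0 ± 3.04 and 86.9 ± 2.99), Atp6v1g1 (89.5 ± 14.8 and 79.0 ± 8.45), Atp6v0b (89.2 ± 8.49 and 78.6 ± 7.60), Atp6v1b2 (88.3 ± 9.34 and 93.7 ± 4.88) and Atp6v1f (86.9 ± 10.5 and 82.5 ± 12.5). The a4 isoform, at 60.7 ± 1.91 and 55.6 ± 2.98, was the most abundant specialised gene per length. The type A and type B exchangers Slc4a1 and Slc4a9 were alike, at 12.7 ± 3.46 and 12.4 ± 2.46 in the libraries labelled knockout and 11.5 ± 1.87 and 11.3 ± 1.60 in those labelled wildtype, and Slc26a4 was higher, at 36.6 ± 8.18 and 32.5 ± 6.68. Hmx2 was at 2.81 ± 1.12 and 2.31 ± 0.85.

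Over all 8 libraries the SD of log2 CPM had a median of 0.225 over the 34 genes, beside 0.23 over all tested genes. It was 0.225 for the specialised and 0.191 for the widely used pump genes, 0.309 for the bicarbonate exchangers, 0.352 for Rhcg, 0.339 for the carbonic anhydrases and 0.485 for the 3 regulators; differences between these medians were not tested. The type B genes Slc26a4 and Slc4a9, with Foxi1 and Atp6v0d2, were each highest in the libraries labelled knockout 2 and 4 and wildtype 1. Slc4a1, Rhcg and Atp6v1g3 were each highest in those labelled knockout 1 and 2 and wildtype 1. These sets of libraries were picked out after the values were seen.

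**Figure D4:**
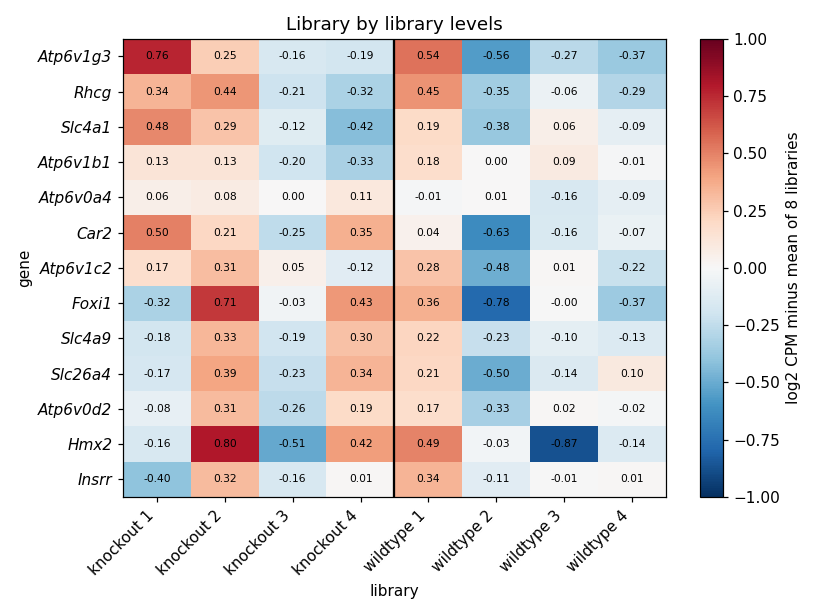
Log2 CPM of 13 genes in each library minus the gene's mean over all 8, from blue (lower) to red (higher), with libraries labelled knockout left of the line; the row order was set after the values were seen. Foxi1, Slc4a9, Slc26a4 and Atp6v0d2 are highest in knockout 2, knockout 4 and wildtype 1, and Slc4a1, Rhcg and Atp6v1g3 in knockout 1, knockout 2 and wildtype 1.

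Foxi1 was set against 11 genes of intercalated cells across the 8 libraries, with exact two-sided permutation tests over 40320 arrangements and p-values adjusted over the 11. For Atp6v0d2 Pearson's r was 0.87 (exact permutation p = 0.00573, adjusted p = 0.0248) and Spearman's rho 0.90 (exact permutation p = 0.00456, adjusted p = 0.0251). For Slc26a4 r was 0.86 (exact permutation p = 0.00677, adjusted p = 0.0248) and rho 0.83 (exact permutation p = 0.0154, adjusted p = 0.0564). Without the 2 libraries farthest from the Foxi1 median (wildtype 2 and knockout 2), r was 0.66 for Atp6v0d2 (unadjusted exact permutation p = 0.142) and 0.64 for Slc26a4 (unadjusted exact permutation p = 0.196). Both genes also missed the adjusted threshold without knockout 2, wildtype 1, wildtype 2 or wildtype 3 alone, with r of 0.77 to 0.88 (exact permutation adjusted p = 0.0568 to 0.159). With fewer libraries the threshold is harder to pass, so its loss cannot be ascribed to wildtype 2 and knockout 2. After group means were subtracted, r was 0.89 for Atp6v0d2 (exact permutation p = 0.0156, adjusted p = 0.0573) and 0.86 for Slc26a4 (exact permutation p = 0.0347, adjusted p = 0.0955). The 2 relations that passed in this way were those of Slc4a9 and Insrr, each with r of 0.91 (exact permutation p = 0.00694, adjusted p = 0.0382). For Slc4a9 r was 0.91 (exact permutation p = 0.000769, adjusted p = 0.00846) and rho 0.90 (exact permutation p = 0.00456, adjusted p = 0.0251). Without wildtype 2 and knockout 2, r was 0.90 (unadjusted exact permutation p = 0.0222). Without knockout 2 alone, Slc4a9 missed the adjusted threshold, with r of 0.86 (exact permutation adjusted p = 0.0502). Its values have a gap between 70.0 and 87.0 CPM, and the 3 libraries above it are also the 3 highest in Foxi1; clusters of 3 and 5 libraries are too small to test the relation within them. Rhcg has a like gap between 103 and 136 CPM.

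Slc4a1, of type A cells, and the pump isoform Atp6v1b1 gave smaller coefficients with Foxi1. For Slc4a1 r was 0.25 (exact permutation p = 0.547) and rho 0.19 (exact permutation p = 0.665), and for Atp6v1b1 r was -0.03 (exact permutation p = 0.936) and rho 0.12 (exact permutation p = 0.793). The other coefficients were 0.73 for Atp6v1c2, 0.68 for Insrr, 0.57 for Hmx2, 0.52 for Rhcg, 0.40 for Atp6v1g3 and 0.37 for Atp6v0a4, with adjusted p for r between 0.102 and 0.459 (exact permutation) and rho between 0.38 and 0.67. Whether the coefficient of the type A gene Slc4a1 differs from those of the type B genes Slc26a4 and Slc4a9 was not tested. In each point both genes share a library and its depth, and 1.98% of the 14432 other tested genes had r of at least 0.8 with Foxi1. The 8 other markers of intercalated cells summed to 171, 214.5, 173 and 186 CPM in knockout-labelled libraries 1 to 4, against 214, 146, 194 and 157 CPM in wildtype-labelled libraries 1 to 4. Without the libraries with adrenal transcripts, or without those with heat-shock transcripts, 0 of the 11 relations passed the adjusted threshold, against 3 with all 8. The coefficients were then 0.82 for Slc4a9, 0.77 for Slc26a4 and 0.75 for Atp6v0d2 without the adrenal libraries, and 0.80, 0.72 and 0.73 without the heat-shock libraries, over 6 libraries each time.

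**Figure D5:**
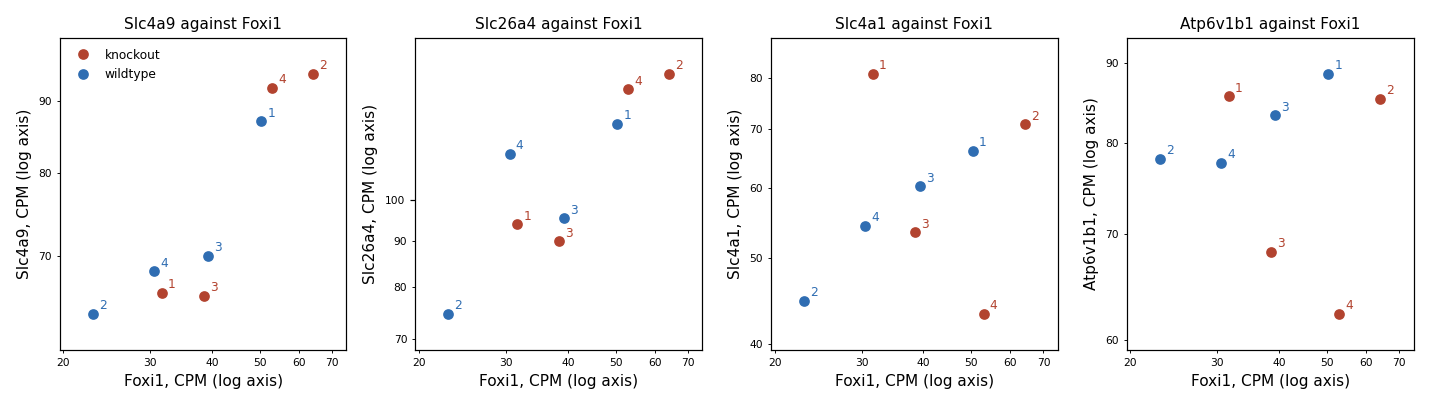
Foxi1 (x axis) against Slc4a9, Slc26a4, Slc4a1 and Atp6v1b1 (y axes), all in CPM on log axes, with 1 numbered point per library, red for knockout and blue for wildtype. Slc26a4 is highest in the 3 libraries highest in Foxi1, and its order in the other 5 is mixed. Slc4a9 falls into 3 high and 5 low libraries, and Slc4a1 and Atp6v1b1 show no order with Foxi1.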

How the data were processed

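Per the labels' protocols, whole-kidney RNA was purified with Trizol and columns, and a directional kit was used for the libraries. The authors deposited 1 file per library with counts of reads for each gene, in whole numbers and without normalization. STAR, HTSeq, edgeR and build mm9 are named in the submitters' processing notes, without versions or annotation. Counting did not use strand, as the names of the deposited files state. Of all reads in the files, 11.6% to 16.2% lay outside genes, 2.05% to 2.31% were ambiguous and 15.8% to 20.9% had no unique place; these lines were left out.

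Of 37583 identifiers, 32860 matched a symbol in GENCODE; positions and exon lengths are those of GENCODE on GRCm38, looked up by identifier, and none was converted from mm9. The main test was edgeR 4.0.16 (R 4.3.3), quasi-likelihood, robust, two-sided, with TMM scaling, the default count filter (minimum count 10, total 15), genotype as the only term, and Benjamini-Hochberg adjustment over 14433 genes at 0.05. It was tested on simulated data. Genes and lists were chosen with earlier results of these data known. Values per library were printed for specialised pump isoforms, transporters, regulators, and any other gene at an unadjusted p under 0.05; of the other acid-base genes, those at that p and the 3 most abundant were named. Others named with values were chosen after these were seen. Promoters are from RefSeq on GRCm38.p6. Alternatives were other scalings, no filter, DESeq2 1.42.0, limma-voom (limma 3.58.1), a replicate block, and libraries left out. Permutation tests used exact enumeration in Python 3.11.15, and figures matplotlib 3.10.9.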

Additional observations from a re-analysis of the deposited data

Results flagged for a closer look

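Among 78 sets of 4 libraries, 1 value stood apart from its group. Atp6v0a1, an a subunit of intracellular pumps, was at 63.2, 85.1, 86.8 and 90.4 CPM in knockout-labelled libraries 1 to 4, against 76.7, 92.7, 93.0 and 95.9 CPM in wildtype-labelled libraries 1 to 4. The wildtype-labelled library 1, at 76.7 CPM, lay farther below its group than Dixon's 95% critical value allows. Chance gives such a value in about 1 of 20 sets.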

How the results depend on the processing

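No acid-base gene was called under any of 17 alternatives (smallest adjusted p 0.392). Over all genes DESeq2 called 4, and edgeR called 2 without wildtype 1. It called 1 without knockout 3, 1 without knockout 4 and 1 without the heat-shock libraries. Of the 34 genes, 16 kept the sign of their log2 difference under all 17. At an unadjusted p under 0.05, the count of higher genes, 1 in all libraries (Car2), was 0 with limma-voom, without the heat-shock libraries and without the clock-shifted libraries. It was 3 with the replicate block, and 0 to 6 without single libraries (6 without wildtype 1). Without the adrenal libraries it stayed 1, but the gene was Atp6v1g3 and not Car2. The count of lower genes, 1 in all libraries (Atp6v1a), was 0 with DESeq2 size factors, plain library sizes, no filter, or without the adrenal, heat-shock or clock-shifted libraries. It was 0 to 2 without single libraries (2 without wildtype 1). With the replicate block it stayed 1, but the gene was Atp6v0a2 and not Atp6v1a. In either direction the share of all genes at this p was 4.06% with limma-voom, 7.45% with the block, 8.53% without wildtype 1, and 5.31%, 6.05% and 2.13% without the adrenal, heat-shock and clock-shifted libraries. Genes with groups that did not overlap, 0 in all libraries, numbered 5 without the adrenal, 2 without the heat-shock and 1 without the clock-shifted libraries, beside 11.1%, 15.0% and 5.82% of all genes, and 0 to 5 without single libraries (5 without wildtype 1, 4 without knockout 3, beside 8.92% and 8.13% of all genes). The clock-shifted alternative was chosen after seeing the data.

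The log2 difference changed sign without the heat-shock libraries for Atp6v0d2 (-0.14), Atp6v1b2 (0.034), Atp6v0c (-0.28), Slc26a4 (-0.14), Slc4a9 (-0.14), Car4 (0.059), Foxi1 (-0.031) and Hmx2 (-0.27), without the clock-shifted libraries for Atp6v0c (-0.0009), and with plain library sizes for Car12 (0.0012) and Slc4a4 (0.0071). Without single libraries it ranged across 0 for Atp6v0d2 (-0.0094 to 0.18), Atp6v1c1 (-0.017 to 0.076), Atp6v1d (-0.023 to 0.15), Atp6v1f (-0.0012 to 0.16), Atp6v1h (-0.07 to 0.13), Tcirg1 (-0.13 to 0.16), Atp6v0e2 (-0.036 to 0.21), Slc4a1 (-0.013 to 0.28), Rhcg (-0.0092 to 0.33), Car12 (-0.13 to 0.035), Insrr (-0.24 to 0.0059) and Slc4a4 (-0.14 to 0.059).

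Relations with Foxi1 that passed, 3 in all libraries, numbered 0 without the adrenal or heat-shock libraries, where their coefficients were 0.72 to 0.82, and 0 to 4 without single libraries. The coefficient changed sign for Atp6v1b1 (0.15 with plain sizes, 0.27 and 0.34 without the heat-shock and clock-shifted libraries, -0.26 to 0.38 without single libraries), Slc4a1 (-0.13 without the adrenal libraries, -0.093 to 0.57 without single libraries), Rhcg (-0.025 without the adrenal libraries) and Atp6v0a4 (-0.19 without the heat-shock libraries). With the longest transcript as length, Atp6v1b1 had 18.9% of its family under the wildtype label and Atp6v1c2 49.7% under the knockout label. The cause of these changes was not tested.

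Same-numbered libraries correlated at -0.23 to 0.293, and not every library correlated best with its own number. So few correlations cannot settle whether equal numbers mark pairs. With the replicate block 0 genes were called. The smallest adjusted p of edgeR's quasi-likelihood test was then 0.145, beside 0.957 without the block. The share of all genes at an unadjusted p under 0.05 was 7.45%, beside 4.00%. At this depth and with 4 libraries a label, a factor of 1.5 in either direction lay outside the 95% interval for 26 of the 34 genes.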
